A study of Homo sapiens with 4 samples.

Results

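Control mammospheres of MDA-MB-468, labelled CTL, were examined as a single library, 1 of the 4 RNA-seq libraries of the series. The library was chosen by its label alone, and the levels and ranks of its genes are described without a test, because there is no replicate and no comparison is made. MDA-MB-468 is a human breast cancer cell line of the basal-like, triple-negative class, and mammospheres are the floating spheres that such cells form in serum-free medium without attachment. The label gives the genotype of CTL as wild type and its treatment as none. By the study's methods all 4 pools had been infected with lentiviral vectors for Cas9 and for a doxycycline-inducible guide RNA or its vector control, and double-positive cells had been collected by flow sorting. Each library came from spheres of several plates pooled after culture with B27 and epidermal growth factor (EGF). The 3 other libraries are the control pool with doxycycline (CTL+dox) and the pool with a guide against TCOF1 without and with doxycycline (gRNA2 and gRNA2+dox). They are no replicates of CTL, and their values are given below only as a range beside its own.

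The basal-like class of breast cancer is known for keratins of the basal layer, for high EGFR, which encodes the receptor of EGF, and for little or no oestrogen receptor, progesterone receptor and ERBB2. The mammary epithelium has an inner luminal layer, in which KRT8, KRT18 and KRT19 are the usual keratins, and an outer basal layer with KRT5 and KRT14. Sphere culture is used to enrich cells that can renew themselves, and CD44, low CD24 and aldehyde dehydrogenases such as ALDH1A1 and ALDH1A3 are the markers most often used to select them.

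The CTL library held 19960644 counts on 26475 genes, and 16447 genes, 62.1% of those listed, had at least 3 counts and are called detected here. That limit is 0.1503 CPM (counts scaled to a sum of 1000000) in this library, and a gene at 0 counts has an exact interval that reaches 0.185 CPM. Levels are compared between genes only per exon length, as counts per base of exon scaled to a sum of 1000000 over the 23948 genes with a known length (TPM). Of these, 13315 (55.6%) reached 1 TPM, 8423 (35.2%) reached 10 TPM, 1852 (7.73%) reached 100 TPM and 103 reached 1000 TPM. Of protein-coding genes alone, 76.4% were detected, 65.1% reached 1 TPM, 43.0% reached 10 TPM and 9.62% reached 100 TPM. These shares are the background for the gene groups below. The median TPM of a detected gene was 12.01. Intervals given with a TPM value are exact 95% Poisson intervals of the count and cover counting error only, not the variation between cultures.

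The highest levels per exon length belonged to ferritin, S100, protease inhibitor, keratin and housekeeping genes. FTH1, the heavy chain of the iron store ferritin, stood at the top with 18040.3 TPM, and its light chain FTL had 6686 TPM. S100A7 (psoriasin) followed with 16414 TPM, then S100A11 with 15647 TPM and S100A9 with 14064 TPM, all calcium-binding proteins of the S100 family. PI3 (elafin) with 13972 TPM and SLPI with 8128 TPM encode secreted inhibitors of proteases, and KLK5 with 11273.0 TPM encodes a serine protease of the skin. Among the 30 highest genes, 7 were keratins and 4 were S100 genes. The 30 genes together held 20.2% of the summed TPM, and 22 of them were also among the 30 highest when the length of the Ensembl canonical transcript was used in place of all exons. By that length the level of a detected gene was 0.837 times the one given here at the median, and 0.599 times for genes whose canonical transcript has all their exon bases.

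Genes used by nearly every cell were also among these 30, namely ACTB with 3305 TPM, GAPDH with 2516 TPM, and TMSB10 and TMSB4X, which bind actin monomers, with 10244 and 2613.0 TPM. PERP, a membrane protein of desmosomes, had 6919 TPM and the second highest count of the library, 148944. CEACAM6, a cell adhesion molecule, had 3049 TPM and HMGA1, an architectural chromatin protein, 2898 TPM. By counts that are not divided by length, the 10 highest genes were FTH1, PERP, KRT17, EEF1A1, KRT6A, KLK5, KRT5, ACTB, IER3 and APP. They took 5.32% of all counts (exact 95% Clopper-Pearson interval 5.31 to 5.33%), so no small set of genes filled the library. Of the 30 highest genes per length in CTL, 26 were also among the 30 highest in all 3 other libraries, and 29 stayed within 1.5 times of the CTL level there. The exception was FTH1, which ranged from 19785 to 28812 TPM in the others.

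**Figure D1:**
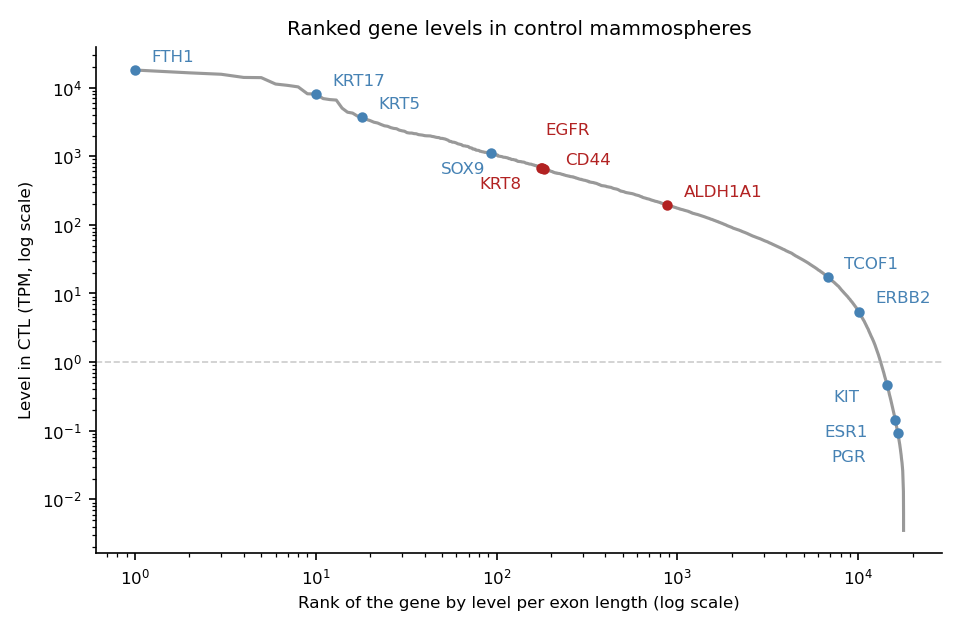
Level of every gene with at least 1 count in CTL (TPM, log scale) against its rank (log scale), with genes of the text marked, the 4 marker genes EGFR, KRT8, CD44 and ALDH1A1 in red; the dashed line is at 1 TPM. With all exon bases as length, EGFR, KRT8 and CD44 lie side by side at ranks 177 to 184. KIT, ESR1 and PGR fall on the steep end of the curve below 1 TPM.

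Families of the cornified layer were followed by symbol, chosen after their values were seen. The 11 SPRR genes, precursors of the cornified envelope, were all detected (against 76.4% of protein-coding genes), with a median of 465 TPM. SPRR1B reached 4381 TPM, SPRR2A 1746 TPM and SPRR3 1166 TPM. CDSN, which encodes corneodesmosin, had 1983 TPM and SERPINB2, a protease inhibitor of keratinocytes, 1985 TPM. IVL (involucrin) had 213 TPM and LCE3D 385 TPM, whereas TGM1, a transglutaminase that cross-links the envelope, had 9.35 TPM. The late envelope genes thus did not share a single level. Of the 17 S100A genes 16 were detected (against 76.4% of protein-coding genes), with a median of 819 TPM. They held 5.91% of the summed TPM against 4.01% for the 55 keratin genes and 2.60% for the 81 genes of cytosolic ribosomal proteins. The order turned when counts were not divided by length, with 0.976% for the S100A genes, 2.95% for the keratins and 1.92% for the ribosomal proteins. Reads that align to several places are not counted by STAR, and these were 4.85% of all reads, so that families with near-identical copies, such as ribosomal proteins, SPRR2 and KRT6, may be counted too low.

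The promoters of 3 of these genes and of EGFR are shown for a sequence feature that the choice of the library did not use. The feature was more frequent in those of the highest genes that had a promoter window. The 3 were chosen as examples that hold the run described next. Each line gives the 60 bases before the annotated start, on the strand of the gene, from RefSeq on GRCh38.p14, with the letters TATAA in capitals where they lie between 40 and 20 bases before the start. S100A7 spans chr1:153460652-153460711 on the reverse strand, S100A9 spans chr1:153357794-153357853 on the forward strand and KLK5 spans chr19:50953039-50953098 on the reverse strand. The EGFR lines are from the forward strand, chr7:55018957-55019016 before its upstream start and chr7:55109779-55109838 before a start inside the gene.
S100A7: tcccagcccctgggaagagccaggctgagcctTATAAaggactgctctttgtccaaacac
S100A9: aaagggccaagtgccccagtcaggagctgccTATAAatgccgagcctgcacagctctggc
KLK5: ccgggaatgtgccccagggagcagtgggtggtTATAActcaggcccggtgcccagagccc
EGFR upstream start: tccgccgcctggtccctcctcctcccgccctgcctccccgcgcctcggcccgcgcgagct
EGFR inner start: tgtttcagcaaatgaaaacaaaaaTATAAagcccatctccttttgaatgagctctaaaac

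The TATAA run began at position -28 in S100A7 and KLK5 and at -29 in S100A9, counted back from the start. The upstream EGFR promoter had no such run in this stretch and held 73.6% G and C over the 250 bases before the start, against 38.8% for the inner one, which had the run at -36. Counts per gene do not tell which start was used. Among 21920 promoter windows of 15775 genes with a level, 4.52% held TATAA on the gene's strand in this stretch and 1.56% held it on the other strand. Only 19 of the 30 highest genes and 76 of the 100 highest had a window, so the shares for these groups leave the others out. The share was 23.8% (5 of 21 windows) for those 19 genes. The 5 windows were those of S100A7, S100A9, KLK5, TMSB10 and S100P. All other genes with a window, S100A11, PERP, FTL, KRT5 and GAPDH among them, had none. On the other strand 14.3% held it. The share on the gene's strand was 26% (25 of 96 windows) for the 76 genes among the 100 highest, with 5.21% on the other strand. It was 7.38% for genes from there down to rank 1000 and 3.15% for detected genes below rank 1000. It was 7.79% for genes under 3 counts, so it did not fall steadily with the level. Some genes have several windows, and a match of 5 letters is a description and not a measured site.

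EGFR was the highest of 58 receptor tyrosine kinase genes, with 54707 counts and 669 TPM (664 to 675). It ranked at place 177 of all genes with a length, above 99.3% of them, and the other libraries gave 583 to 803 TPM. EGFR lies on chromosome 7 of GRCh38 from 55019017 to 55211628. DDR1, a receptor for collagen, came next with 412 TPM and EPHA2, a receptor for ephrins, with 182 TPM. No other receptor of the list reached 100 TPM. At or above 1 TPM were 34 of the 58 (58.6%, against 55.6% of all genes and 65.1% of protein-coding genes). EGFR was 1.63 times DDR1 per length (1.60 to 1.65), but 1.1 times with the length of the canonical transcript of each gene, so that the order of these neighbours is uncertain.

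The relatives of EGFR were far lower, and they did not share a level. ERBB3, the kinase-impaired partner, had 1639 counts and 27.3 TPM (26.0 to 28.7), ERBB2 had 288 counts and 5.44 TPM (4.83 to 6.11), and ERBB4 had 1 count. EGFR was thus 123 times ERBB2 per length (109.5 to 139) and 24.5 times ERBB3 (23.3 to 25.8), or 87.4 and 18.9 times with canonical lengths. In the other libraries EGFR was 122 to 176 times ERBB2. MET, the receptor of hepatocyte growth factor, had 53.5 TPM, INSR 22.0 TPM, AXL 9.80 TPM and IGF1R 9.18 TPM. KIT, the receptor of stem cell factor and a gene the study followed, had 27 counts and 0.465 TPM (0.306 to 0.676), above 39.7% of genes with a length.

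All 7 genes of EGFR ligands were detected (against 76.4% of protein-coding genes) and at or above 1 TPM (against 65.1%). AREG (amphiregulin) had 923 TPM and was 3.15 times TGFA (3.05 to 3.25), which had 293 TPM. HBEGF had 82.4 TPM, EPGN 53.6 TPM and EREG 18.6 TPM, while BTC had 7.50 TPM and EGF itself 6.42 TPM. The cells thus held the RNA of several ligands in medium that also supplied EGF. The 12 adaptor and feedback genes of the receptor were all at or above 10 TPM (10 of them with canonical lengths), against 43.0% of protein-coding genes. They were led by the adaptor GRB2 with 228 TPM and the inhibitor SPRY2 with 181 TPM. DUSP6, a phosphatase for ERK, had 109.8 TPM and ERRFI1, an inhibitor that binds EGFR, 109.6 TPM, and the lowest was SPRED1 with 11.3 TPM.

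**Figure D2:**
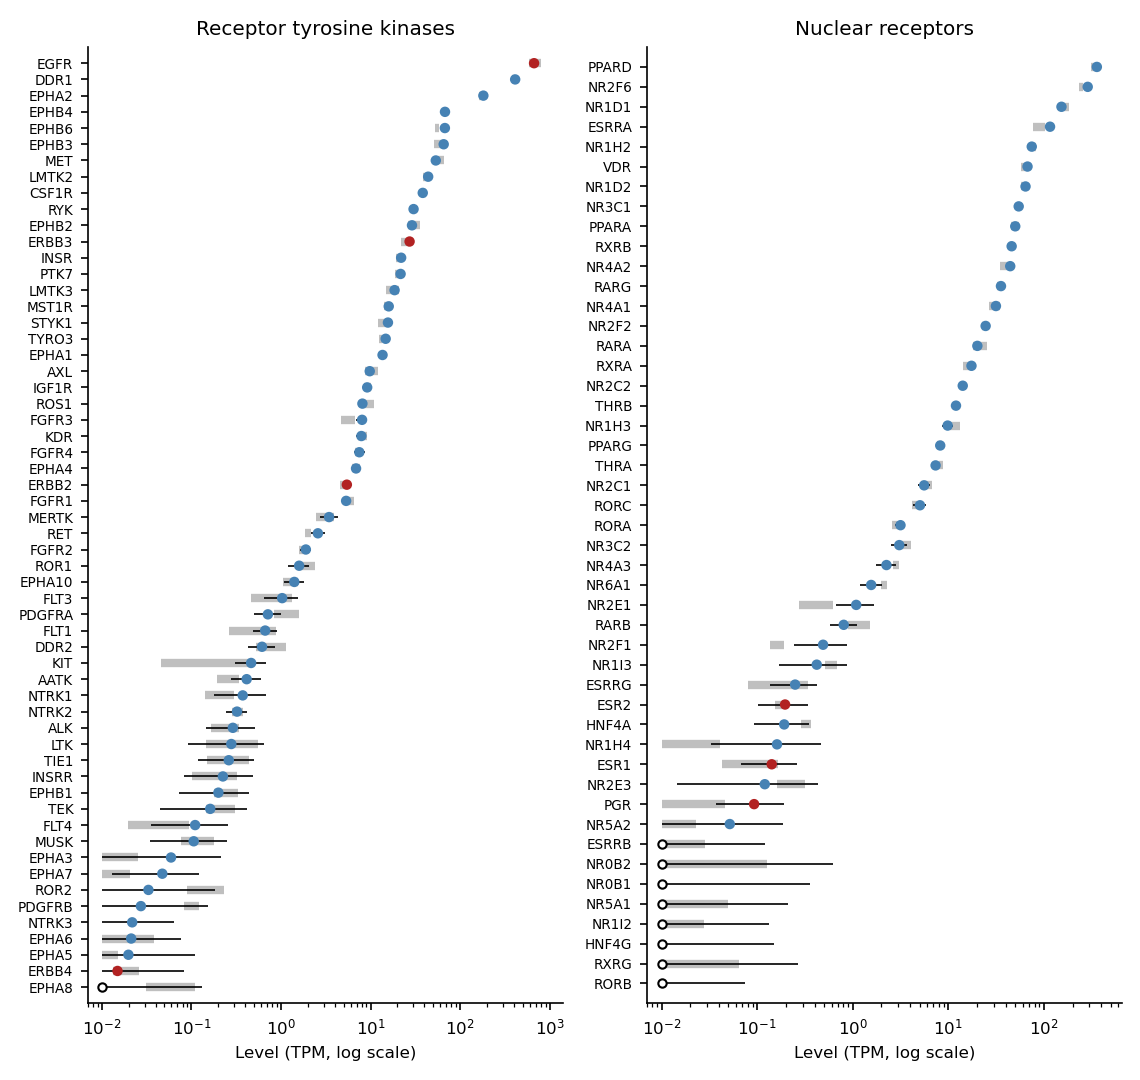
Levels (TPM, log scale) of receptor tyrosine kinases and most of the listed nuclear receptors in CTL as points, the EGFR family and the receptors ESR1, ESR2 and PGR in red, with the exact 95% counting interval as a thin line and the range over the 3 other libraries as a grey bar; open circles are genes at 0 counts, drawn at the lower edge. EGFR at 669 TPM stands apart from ERBB3 at 27.3 TPM and ERBB2 at 5.44 TPM, and ESR1 and PGR lie under 1 TPM.

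The genes around EGFR were looked at because MDA-MB-468 is known to carry extra copies of this stretch of chromosome 7. Of 12 protein-coding genes whose lower coordinate lay within 1.5 Mb of that of EGFR, EGFR included, 11 were detected, 8 reached 100 TPM and 3 reached 1000 TPM. Among all protein-coding genes these shares were 76.4%, 9.62% and 0.536%. SEC61G, a subunit of the channel for secretory proteins, had 2776 TPM (7206 TPM with its canonical length), CHCHD2, a mitochondrial protein, 2401 TPM and CCT6A, a subunit of a chaperonin, 1133 TPM. VOPP1 had 962 TPM, LANCL2 195.5 TPM and PSPH, an enzyme of serine synthesis, 173 TPM, while VSTM2A had 0 counts. The median of the 10 detected neighbours without EGFR was 184 TPM (143 TPM with canonical lengths), against 14.1 TPM over 13744 detected coding genes with a position. Several of these neighbours are genes that most cells express. Copy number was not measured here, and its part in these levels was not tested.

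To see how often neighbouring genes are all high, the genome was read in 13560 windows of 9 detected coding genes in a row. The median over windows of the median percentile was 69.1. The best window with EGFR had 96.4 and took place 45 of all windows. As the highest of the windows that hold EGFR, it cannot be weighed against that median. The windows overlap, so a place does not count separate regions. The highest window was the S100A part of chromosome 1, from 153217584 to 153535991, with a median percentile of 99.6. Next among windows that do not overlap came the type I keratins on chromosome 17 from 41523617 to 41786711, with KRT19, KRT14, KRT16 and KRT17, and a stretch of chromosome 1 from 152908546 to 153094526 with IVL and SPRR genes. Windows of other genes also lay above that of EGFR, such as chromosome 11 from CFL1 to DRAP1 (place 20), chromosome 19 from CDC37 to SLC44A2 (place 22) and chromosome X from IRAK1 to FAM50A (place 25).

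**Figure D3:**
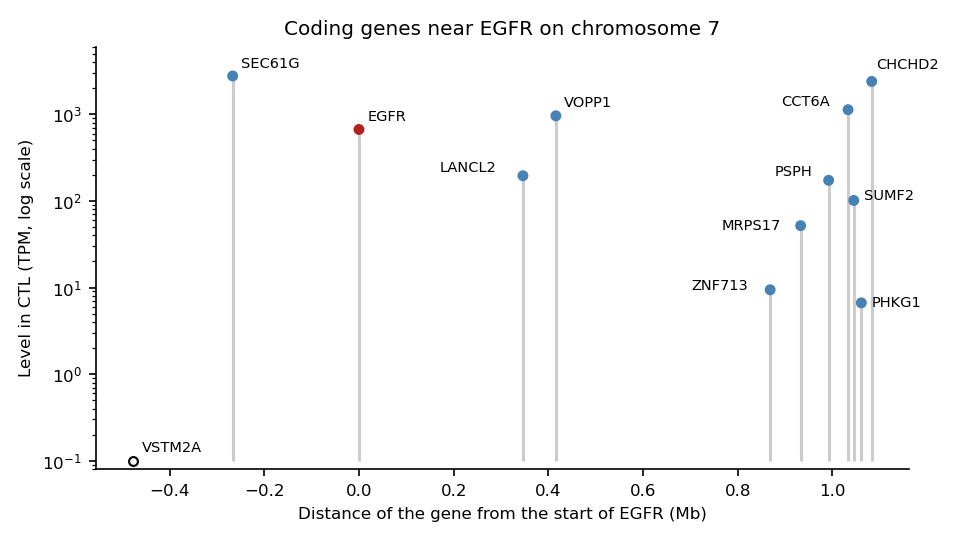
Levels (TPM, log scale) of protein-coding genes in CTL against the distance of their lower coordinate from that of EGFR in Mb, EGFR in red, with grey stems down to the axis only to guide the eye; the open circle is a gene at 0 counts, drawn at the lower edge. SEC61G, CHCHD2 and CCT6A lie above 1000 TPM and EGFR at 669 TPM, while VSTM2A had 0 counts.

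Keratins of both mammary layers were high in the same library, and KRT17 and KRT6A of the basal and stratified group were the highest. KRT17, a keratin of basal and regenerating epithelium, had 8059 TPM (8014 to 8104) and the other libraries 7731 to 8458 TPM. KRT6A with 6582 TPM, KRT16 with 4251 TPM and KRT6B with 3453 TPM are keratins of activated keratinocytes. KRT5 had 3706.5 TPM and its partner KRT14 had 2729.9 TPM, which was 0.737 times KRT5 (0.727 to 0.746). All 10 genes of this group were at or above 10 TPM (9 with canonical lengths), against 43.0% of protein-coding genes. Of them 7 reached 100 TPM (70%, against 9.62%), KRT81 with 1089 TPM being the lowest of these. The others were KRT6C with 72.8 TPM, KRT15 with 36.2 TPM and KRT86 with 12.9 TPM. KRT6A, KRT6B and KRT6C are near-identical copies, so how their reads divide is uncertain.

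Among the 4 luminal keratins, KRT19 led with 5018 TPM (4978 to 5058), followed by KRT7 with 896 TPM, KRT8 with 664 TPM (655 to 672) and KRT18 with 539 TPM. KRT8 had 23423 counts, ranked at place 179 and stood above 99.3% of genes, and the other libraries gave 696 to 811 TPM, all above CTL. EGFR was 1.01 times KRT8 (0.993 to 1.02), but 0.421 times with canonical lengths, so their order depends on the length used. KRT8 came to 1534 TPM with its canonical length. KRT8 and KRT18 are neighbours on chromosome 12 whose annotated spans overlap, from 52948855 to 52949860, and reads in both are left out as ambiguous. The summed level was 7117 TPM for the luminal keratins and 29992 TPM for the basal and stratified ones, a log2 ratio of -2.08 (-2.09 to -2.06). With KRT5, KRT14 and KRT17 alone as the basal group the log2 ratio was -1.03, and with KRT5 and KRT14 alone it turned to 0.145, so both the direction and the size depend on the genes summed.

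Of 19 other keratins 16 were detected (84.2%, against 76.4% of protein-coding genes), among them KRT23 with 521 TPM, KRT80 with 438 TPM and KRT4 with 137 TPM. The keratins of the upper epidermis stood lower, KRT10 with 93.5 TPM and KRT1 with 2.35 TPM, and KRT24, KRT77 and KRT85 had 0 counts.

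**Figure D4:**
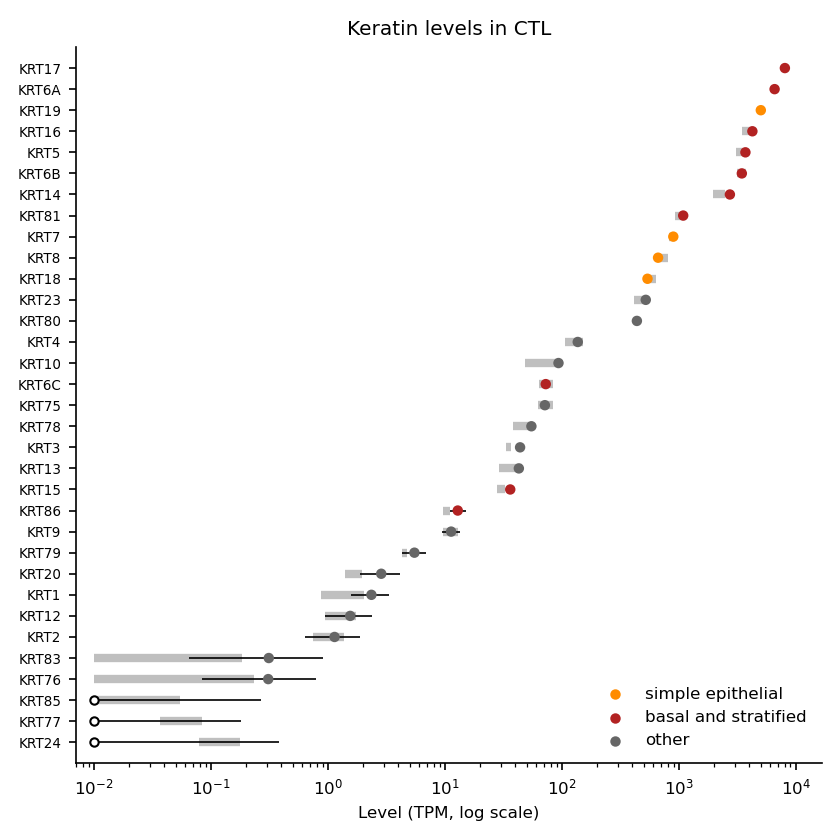
Levels (TPM, log scale) of keratin genes in CTL, coloured by group (the luminal keratins are marked simple epithelial), with exact 95% counting intervals and, in grey, the range over the 3 other libraries; open circles are genes at 0 counts, drawn at the lower edge. KRT17 at 8059 TPM tops the basal and stratified keratins, and KRT19 at 5018 TPM lies above KRT7, KRT8 and KRT18 among the luminal ones.

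The genes of the PAM50 classifier, which sorts breast tumours into intrinsic subtypes, were read in 3 groups without applying the classifier, which needs a cohort. The 11 basal genes had a median of 188 TPM, and 7 of them reached 100 TPM (63.6%, against 9.62% of protein-coding genes). These were KRT17, KRT5, KRT14, EGFR, PHGDH with 228 TPM, FOXC1 with 188 TPM (112 TPM with its canonical length) and SFRP1 with 120.3 TPM. With canonical lengths PHGDH came to 673 TPM and SFRP1 to 76.4 TPM, which left 6 at 100 TPM. PHGDH makes serine, FOXC1 is a transcription factor of the basal-like class and SFRP1 is a secreted WNT antagonist. CDH3, the basal P-cadherin, had 49.6 TPM, and MIA had 0 counts. The 18 luminal and HER2 genes had a median of 23.2 TPM, with TMEM45B at 439 TPM, GRB7 at 128 TPM and FOXA1, a pioneer factor for the oestrogen receptor, at 25.2 TPM. The 21 proliferation genes were all at or above 1 TPM (against 65.1% of protein-coding genes). They ran from NUF2 with 4.93 TPM to MYBL2 with 138.5 TPM, with a median of 29.9 TPM and MKI67 at 9.63 TPM.

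The steroid hormone receptors that define luminal breast cancer were close to the limit of detection. ESR1, the oestrogen receptor alpha, had 10 counts and 0.142 TPM (0.0681 to 0.261), with 0.0432 to 0.165 TPM in the other libraries. PGR, the progesterone receptor, had 7 counts and 0.0929 TPM (0.0374 to 0.191). ESR2 had 12 counts and 0.196 TPM. These few reads show that the RNA was scarce in the pool, not whether any cell used it.

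The nuclear receptors as a family were detected about as often as protein-coding genes in general. Of 48, the steroid receptors included, 37 were detected (77.1%, against 76.4% of protein-coding genes), 28 were at or above 1 TPM (58.3% against 65.1%) and 4 reached 100 TPM (8.33% against 9.62%). These 4 were PPARD with 359 TPM, a receptor for fatty acids, NR2F6 with 288 TPM, the clock gene NR1D1 with 153 TPM and ESRRA with 116 TPM, which regulates mitochondrial genes. With canonical lengths NR1D1 had 91.6 TPM and ESRRA 94.8 TPM, which left 2 at 100 TPM. VDR, the vitamin D receptor, had 67.5 TPM and NR3C1, the glucocorticoid receptor, 54.6 TPM.

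Genes of luminal differentiation and oestrogen response ranged widely. Of 17 such genes 14 were detected (82.4%, against 76.4% of protein-coding genes), and the median was 7.13 TPM. At or above 1 TPM were 10 (58.8%, against 55.6% of all genes and 65.1% of protein-coding genes). STC2, a secreted glycoprotein, had 843 TPM, XBP1, a factor of secretory cells, 622 TPM, the ETS factor SPDEF 164 TPM and GATA3, the main factor of luminal fate, 146 TPM (140.5 to 152), or 96.4 TPM with its canonical length, by which SPDEF had 98.5 TPM. AGR2 had 33.0 TPM and TFF1 7.13 TPM from only 18 counts, and TFF3 had 0 counts. The oestrogen targets GREB1 and CA12 had 0.957 and 0.557 TPM, and the factor TBX3 had 1 count. The targets and partners of the oestrogen receptor thus ran from 0 counts (TFF3) to 843 TPM (STC2).

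All 20 transcription factors of the luminal progenitor and basal-like list were detected, against 76.4% of protein-coding genes. Their median was 56.4 TPM, and 8 reached 100 TPM (40%, against 9.62%). SOX9, a factor of luminal progenitors and mammary stem cells, led with 22151 counts and 1099 TPM (1085 to 1114), or 658 TPM with its canonical length, and the other libraries gave 975 to 1174 TPM. EHF with 373.5 TPM and ELF3 with 139 TPM are epithelial ETS factors, VGLL1 with 358 TPM binds TEAD factors, RUNX3 had 308 TPM and KLF5 262 TPM. ELF5, the factor of the milk-forming lineage, had 5.99 TPM. TP63, the master factor of basal cells, had 16 counts and 0.417 TPM (0.239 to 0.678), and SOX10 had 3 counts. KRT5, KRT14 and KRT17 were therefore among the highest genes of a library in which TP63 had 16 counts.

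Genes of the myoepithelial and contractile list were mostly detected, but their median level was low. Of 11 genes in that list 10 were detected (90.9%, against 76.4% of protein-coding genes). At or above 1 TPM were 5 (45.5%, against 65.1%), and none reached 100 TPM (against 9.62%). Their median was 0.744 TPM, against 5.91 TPM over all protein-coding genes. The membrane protease MME had 49.4 TPM and CAV1 22.0 TPM, whereas smooth muscle actin ACTA2 had 8 counts, MYH11 0.286 TPM and CNN1 1 count. The high basal keratins were thus not matched by high ACTA2, MYH11 or CNN1.

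The epithelial junction genes were high throughout. All 17 were at or above 10 TPM (against 43.0% of protein-coding genes), 11 reached 100 TPM (64.7%, against 9.62%) and the median was 172 TPM. The adhesion molecule EPCAM had 715 TPM, the tight junction genes CLDN7 and CLDN4 had 648.5 and 249 TPM, the desmosomal DSP had 461 TPM and CDH1, E-cadherin, had 139.7 TPM. Of 15 mesenchymal genes 7 were at or above 1 TPM (46.7%, against 65.1% of protein-coding genes), with a median of 0.439 TPM. FN1, fibronectin, was the exception with 347 TPM, followed by the repressor SNAI1 with 36.0 TPM and VIM, vimentin, with 24.9 TPM. CDH2, N-cadherin, had 0.341 TPM, so that CDH1 was 409.8 times CDH2 (248 to 733), or 242 times with canonical lengths, with 15 counts behind the latter, and the repressors ZEB1 and ZEB2 had 9 and 0 counts.

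CD44, the hyaluronan receptor used with CD24 to sort breast cancer stem cells, had 32901 counts and 642 TPM (635 to 649). It ranked at place 184 and stood above 99.2% of genes, and the other libraries gave 611 to 766 TPM. CD24 had 15065 counts and 755 CPM, place 126 by count among all genes, but no exon length in the annotation used here, so the level of CD24 per length and the ratio of the pair are not given. Both genes of the sorting pair were thus strongly expressed in the pool, and bulk counts do not tell whether the same cells held both. EGFR was 1.04 times CD44 per length (1.03 to 1.06) and 0.912 times with canonical lengths.

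Of 20 surface markers of breast cancer stem cells, 17 were detected (85%, against 76.4% of protein-coding genes). Of the 19 with a length, 6 reached 100 TPM (31.6%, against 9.62%). Besides EPCAM and CD44 these were CD9 with 186 TPM, the laminin receptor subunit ITGA6 with 178 TPM, NECTIN4 with 152 TPM and CD55 with 126 TPM. PROM1, which encodes CD133, had 28.4 TPM (26.8 to 30.2), and the other libraries 15.7 to 26.7 TPM, all below CTL. PROCR had 5.75 TPM, the transporter ABCG2 and the chemokine receptor CXCR4 had 5 counts each, and THY1, LGR5 and TSPAN8 had 0 counts. The markers of the list thus ran from 0 counts to 715 TPM. With canonical lengths CD9 had 529 TPM, CD55 299 TPM and NECTIN4 91.2 TPM, while the integrin ITGB1 had 155 TPM in place of 66.2 TPM, so that 5 of these 6 genes stayed at or above 100 TPM.

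All 19 aldehyde dehydrogenase genes were detected (against 76.4% of protein-coding genes), and 13 were at or above 10 TPM (68.4%, against 43.0%). ALDH1A3, which makes retinoic acid, was the highest with 18405 counts and 673 TPM (663 to 683), and the other libraries gave 634 to 702 TPM. ALDH3B2 had 422 TPM. ALDH1A1, the classical marker, had 2824 counts and 194 TPM (187 to 201), stood above 96.3% of genes, and ranged from 139 to 224 TPM in the others. ALDH1A3 was 3.47 times ALDH1A1 per length (3.33 to 3.61), 3.94 times with canonical lengths and 3.13 to 4.58 times in the other libraries. Next was ALDH9A1 with 68.1 TPM, and the lowest was ALDH1L1 with 11 counts.

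Stemness regulators ranged from 0 counts to 2898 TPM. Of 19, 15 were detected (78.95%, close to the 76.4% of protein-coding genes). They were led by HMGA1 with 2898 TPM, SOX9 with 1099 TPM and YAP1, the effector of the Hippo pathway, with 221.5 TPM. KLF4 had 66.5 TPM, ID1 54.2 TPM, MYC 30.1 TPM and EZH2, the methyltransferase of the Polycomb complex, 18.8 TPM. The pluripotency gene SOX2 had 0 counts and NANOG 1 count, LIN28A and TERT had 0 counts, and BMI1 had 1.02 TPM. POU5F1 had 6.86 TPM, and it shares sequence with pseudogenes, so its reads are uncertain.

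**Figure D5:**
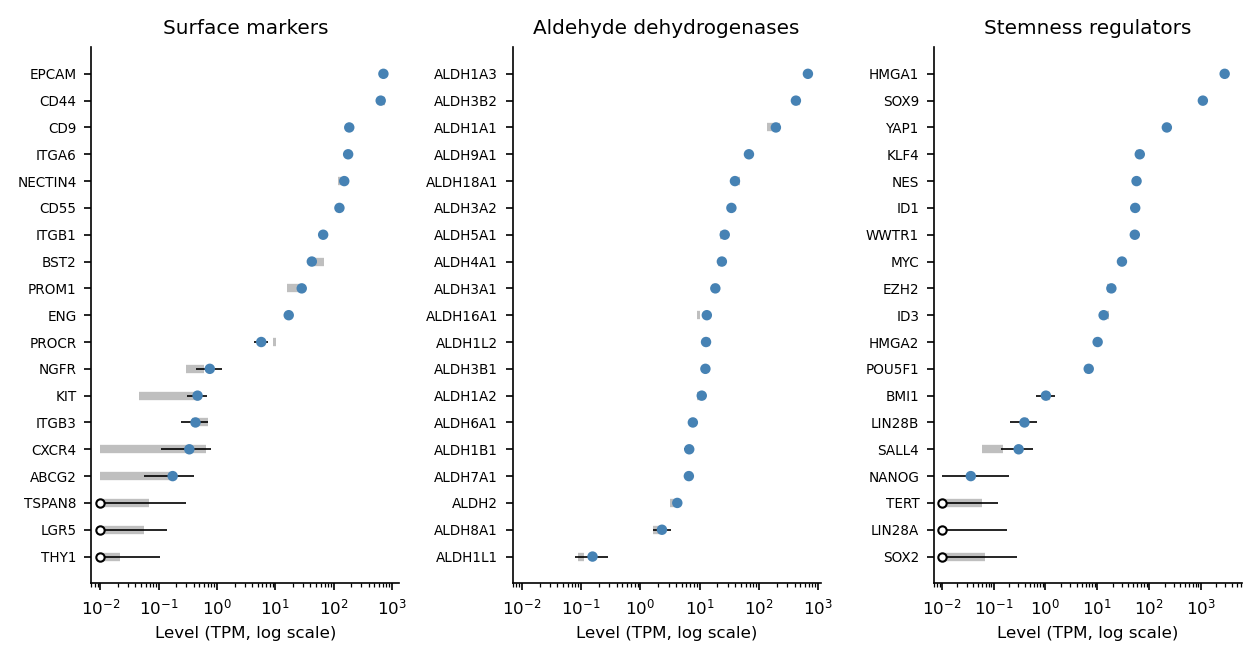
Levels (TPM, log scale) of aldehyde dehydrogenases, surface markers and stemness regulators in CTL, with exact 95% counting intervals and, in grey, the range over the 3 other libraries; open circles are genes at 0 counts, drawn at the lower edge. ALDH1A3 at 673 TPM lies above ALDH1A1 at 194 TPM, CD44 and EPCAM top the surface markers, and SOX2, LIN28A and TERT had 0 counts.

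Receptors of the pathways that are studied in mammary stem cells were mostly present at moderate levels. Of 17 WNT receptor genes 16 were detected (94.1%, against 76.4% of protein-coding genes) and none reached 100 TPM (against 9.62%). The highest were FZD7 with 63.3 TPM, LRP5 with 44.3 TPM and LGR4 with 40.3 TPM. FZD8, which the study followed, had 64 counts and 3.08 TPM (2.37 to 3.94), and the other libraries gave 0.688 to 2.04 TPM. NOTCH3 was the highest of 9 Notch receptors and ligands with 265 TPM, ahead of NOTCH2 with 79.8 TPM and the ligand JAG1 with 54.1 TPM. Among the 26 integrins, ITGA2, a collagen receptor subunit, had 571 TPM and ITGB4, which with ITGA6 forms the hemidesmosome receptor for laminin, 514 TPM. OSMR, the receptor of oncostatin M, led 15 cytokine receptors with 223 TPM, and its partner IL6ST (gp130) had 43.2 TPM. The type I receptor TGFBR1 led 12 TGF-beta and BMP receptors with 83.9 TPM, and TGFBR2 had 16.5 TPM.

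TCOF1, the nucleolar factor that the guide of the gRNA2 pool targets, had 1019 counts and 17.4 TPM (16.3 to 18.5) in CTL, above 71.7% of genes with a length, and lies on chromosome 5 of GRCh38 from 150357697 to 150400293. NOS2, the inducible nitric oxide synthase, had 10 counts and 0.318 TPM (0.153 to 0.585). Of the 3 genes that the study followed below TCOF1, FZD8 was thus above 1 TPM and KIT and NOS2 were below it, each on fewer than 100 counts.

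Of 8 tumour suppressor genes 7 were detected (87.5%, against 76.4% of protein-coding genes). The same number were at or above 1 TPM (87.5%, against 65.1%), and the median was 11.1 TPM. MDA-MB-468 is known to lack SMAD4 and RB1 function, so these 2 members are given, which does not establish the identity of the line. SMAD4, the shared partner of TGF-beta receptors' SMAD proteins, had 0 counts, and RB1 had 63 counts and 1.91 TPM (1.47 to 2.44). RNA counts do not tell whether a protein is made.

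Markers of other cell types were mostly below 1 TPM with some exceptions, and what these exceptions stem from was not tested. Of 12 genes of white blood cells 7 were detected (58.3%, against 76.4% of protein-coding genes), with a summed level of 249 TPM. The defining PTPRC (CD45) had 2 counts, CD3E 3 counts and MS4A1 0 counts. That sum was made almost wholly by CD68, a lysosomal protein, with 172 TPM, CSF1R with 38.3 TPM and CD14 with 27.6 TPM. The 5 endothelial genes with a length summed to 8.63 TPM, nearly all from KDR with 7.90 TPM, with CDH5 at 0 counts, and PECAM1, which had no length, had 3 counts. The 8 fibroblast genes summed to 8.77 TPM, nearly all from COL1A1 with 7.75 TPM, with COL3A1 at 1 count and LUM at 0 counts, and the 7 genes of fat and erythroid cells summed to 1.39 TPM with ADIPOQ and HBB at 0 counts. The epithelial part of the line's label was met by the epithelial genes above, and whether they point to breast was not tested. For the basal-like name the lists were mixed. The basal keratins, EGFR and FOXC1 were high, ESR1 and PGR had 10 and 7 counts, and ERBB2 stood above 58.1% of genes with a length. Against this, MIA, SOX10 and BCL11A had 0, 3 and 9 counts, and all 4 luminal keratins were at or above 100 TPM. Of the 17 genes of luminal differentiation and oestrogen response, 4 were (STC2, XBP1, SPDEF and GATA3), or 2 with canonical lengths, and 7 were below 1 TPM. Of the 18 PAM50 luminal and HER2 genes 2 reached 100 TPM (11.1%, against 9.62% of protein-coding genes). TP63, the factor of basal cells, had 16 counts, given here without weighing it for the tumour class.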

How the data were processed

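RNA from mammospheres was sequenced in 1 library for each of 4 conditions, and CTL alone is described. The authors removed adaptors (fastp), aligned the reads with STAR and deposited its raw counts per gene, as their methods state. The submitters' processing notes name hg38. The STAR version and gene annotation are not given in the sources used here. The unstranded counts were used, since 49.1% of stranded counts fell on strand 1. The 4 leading rows that name no gene held reads not assigned: of 25019928 reads, 79.78% were on genes, 10.77% on no feature, 4.85% mapped to several places, 2.12% were ambiguous and 2.49% were unmapped.

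From these counts, CPM and TPM were computed with Python 3.11.15, numpy 2.4.6, pandas 2.3.3 and scipy 1.17.1. Exon lengths (union over transcripts) came from GENCODE 44 lifted to GRCh37, matched by symbol for 23948 of 26475 genes (99.65% of counts), 1342 of them through RefSeq synonyms. Lengths but no coordinates of that build were used. The percentile of a gene is the percent of genes with a length that lie lower, with tied genes split evenly between lower and higher. Positions and promoters are from RefSeq on GRCh38. The calculations were tested on simulated data. Detection needs 3 counts, and precision is set by each gene's count: 10 counts have an exact 95% interval of 4.80 to 18.4, and 1000 counts of 939 to 1064.0.

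The 4 marker genes, the 30 highest genes per length, the 10 with most counts, members of 30 gene lists and TCOF1, KIT, FZD8 and NOS2 were named by rule. The cornified-layer genes and the EGFR neighbours were named after their values were seen. Some list members are not reported here. Members and lists were chosen with earlier results of these data known. No test was made, as 1 library per condition has no replicate. Alternatives were summed strands, other lengths, CPM, other detection limits, a pseudocount of 1 and thinning of the reads, and edgeR 4.0.16 in R 4.3.3 gave scaling factors only. The authors' other experiments were not analysed here.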

Additional observations from a re-analysis of the deposited data

How the results depend on the processing

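The number of detected genes (14439 to 18740) and of genes at 1 TPM or more (13161 to 13654) stayed within 1.5 times of the values reported under every setting run. The share of counts on the 10 highest genes was 5.17% with both strand columns summed and 4.24% of all reads. The percentiles moved by more than their counting error under several settings. With strands summed they were 99.17 for CD44, 99.24 for EGFR and 99.32 for KRT8. With the longest transcript as length they were 96.09 for ALDH1A1, 99.46 for CD44, 99.41 for EGFR and 99.60 for KRT8, and by CPM 93.93, 99.87, 99.96 and 99.76. With the canonical transcript, a setting chosen after seeing the data, they were 95.14, 99.20, 99.10 and 99.71, and among detected genes only 94.46, 98.84, 98.88 and 98.87. The log2 ratio of luminal to basal and stratified keratins was -2.01 with strands summed, -1.73 with the longest transcript, -1.997 by CPM and -1.68 with canonical lengths. With KRT5, KRT14 and KRT17 alone as the basal group it was -1.03. It reversed to 0.145 with KRT5 and KRT14 alone, these last 2 settings also chosen after seeing the data. Of 30 list medians, 23 moved by CPM and 21 with canonical lengths. The ratio of CD44 to CD24 was not computed, as CD24 had no length. No paired analysis was possible because CTL is a lone library, which also left no replicate to leave out. Genes under 10 counts, such as PGR, cannot be ordered at this depth.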
